A study of Mus musculus with 32 samples.

Results

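A set of 6 genes of the ADP-ribosylation machinery that answer to interferon (Parp9, Dtx3l, Parp14, Parp12, Parp11 and Parp10) and their DNA-repair relatives Parp1 and Parp2 were followed by bulk RNA sequencing through mammary tumors and lungs of mice with and without Clic4. The 8 genes were taken by name from a count table of 29511 genes, and all 8 passed the filter on low counts in every comparison. In tumors, Dtx3l, Parp9 and Parp11 were higher in Clic4 knockout (KO) hosts than in wildtype (WT) hosts. Their fold values were 1.44, 1.44 and 1.81, in a test that called 2.51% of all genes. The count of 3 was 6 with DESeq2 and 0 with limma, without KO tumor replicate 5 or without WT tumor replicate 5. The count over all genes moved too, from 347 to 542 with DESeq2 and to 182 with limma on log2(FPKM + 1). It was 227 without KO tumor replicate 5 and 203 without WT tumor replicate 5. Parp10, Parp12 and Parp14 had fold values of 1.38, 1.34 and 1.52 in the same direction but missed the limit of the test, and Parp1 and Parp2 had fold values of 0.919 and 1.02. In lungs no member passed the test between genotypes or between tumor-bearing and tumor-free mice, where 0% to 0.0936% of all genes passed. Of the lungs, 3 carried far more of the interferon-linked transcripts than the other lungs of their groups.

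All mice were virgin FVB/N females, KO or WT littermates aged 6 to 8 weeks at the start. The KO mice carried a constitutive deletion of exon 2 of Clic4, a chloride intracellular channel family gene. The tumors grew for 14 days in the fourth mammary fat pad from 6DT1 cells, a line derived from a mammary tumor of an MMTV-Myc transgenic FVB mouse. The 6DT1 cells kept their own Clic4 in both hosts, so the genotype of a tumor is that of its host's cells. There were 6 tumors from KO hosts, 6 tumors from WT hosts, 6 lungs from each genotype taken at 14 days (14-day lungs) and 4 lungs from each genotype of mice without a tumor (control lungs), 32 libraries in all.

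ADP-ribosylation is the transfer of ADP-ribose from NAD+ onto proteins or nucleic acids. Parp1 and Parp2 sense DNA breaks and build poly(ADP-ribose) chains that recruit repair factors. Parp10, Parp11, Parp12 and Parp14 attach ADP-ribose as a monomer, and their genes, with Parp9 and Dtx3l, are induced by interferons in many cell types. Parp9 carries macrodomains that read ADP-ribose, and it works as a partner of Dtx3l, a ubiquitin ligase of the Deltex family. Interferons act through Janus kinases and the transcription factors these activate, which turn on genes through 2 kinds of short promoter element, the interferon-stimulated response element and the gamma-activated site.

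The sequence upstream of Parp11, the member with the widest difference in tumors, held letters of both elements. RefSeq promoter windows of 300 bases (GRCm38.p6, 250 bases before to 50 bases after an annotated start) were matched for 5 of the 8 members, Dtx3l, Parp1, Parp2, Parp11 and Parp12, with 2 starts for Parp11. The 100 bases before each start are printed 5′ to 3′ on the gene's own strand for Parp11, for Parp12 as an interferon-linked gene without a match and for Parp1 as a repair gene. Capitals mark the matched letters.
Parp11, first start, chr6:127446740-127446839, plus strand: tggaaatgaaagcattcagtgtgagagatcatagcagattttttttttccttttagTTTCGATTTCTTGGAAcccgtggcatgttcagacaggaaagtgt
Parp11, second start, chr6:127453527-127453626, plus strand: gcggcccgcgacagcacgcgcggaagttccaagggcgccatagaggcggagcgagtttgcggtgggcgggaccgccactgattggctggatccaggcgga
Parp12, chr6:39118350-39118449, minus strand: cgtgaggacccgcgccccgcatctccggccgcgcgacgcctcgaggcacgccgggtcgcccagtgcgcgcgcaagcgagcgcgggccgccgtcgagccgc
Parp1, chr1:180568791-180568890, plus strand: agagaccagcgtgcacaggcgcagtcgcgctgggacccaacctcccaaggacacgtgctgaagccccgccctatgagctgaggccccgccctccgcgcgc

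The interferon-stimulated response element was searched on both strands as GAAANNGAAA or TTTCNNTTTC, and the gamma-activated site as TTCNNNGAA. At the first Parp11 start, TTTCGATTTC lay 44 to 35 bases before the start and TTCTTGGAA lay 37 to 29 bases before it, so that the matches overlap. No match was found in the other matched windows, the second Parp11 start included. For Dtx3l and Parp2 this says little of the sequence upstream of the gene, since GENCODE annotates transcript over all 100 bases before the matched Dtx3l start and over 75 of those before the Parp2 start. Of all 32851 mouse windows of this length, 3.44% held the first motif and 8.3% the second. The deposited counts are per gene and do not separate the starts of Parp11.

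Parp14, Dtx3l and Parp9 are neighbours on chromosome 16 (GRCm38, GENCODE M21). Parp14 occupies chr16:35832874-35871544 on the minus strand, Dtx3l chr16:35926511-35939151 on the minus strand and Parp9 chr16:35938470-35972605 on the plus strand. Parp9 and Dtx3l face away from each other and overlap by 682 bases at their starts. Libraries were made with a stranded kit, but the strand setting of the counting was not given in the sources used here, so reads in the overlap are uncertain between Parp9 and Dtx3l. Parp10 lies on chromosome 15, Parp11 and Parp12 lie apart on chromosome 6, Parp1 on chromosome 1 and Parp2 on chromosome 14.

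Library totals ran from 4446323 to 8318711 estimated counts with a median of 5384934, and members had between 59 and 2890 counts in any library. Clic4 FPKM (fragments per kilobase of transcript, scaled to the library's depth) was 55.4 to 74.6 in KO lungs and 154.6 to 229.7 in WT lungs, and the remaining reads in KO lungs come from a gene-level count that does not show which exons they cover. In tumors, Clic4 was 58.9 to 69.0 FPKM in KO hosts and 74.7 to 82.2 FPKM in WT hosts. The summed CPM (counts scaled to library size) of 6 lung epithelial markers were 12900 to 14900 in lungs and 2.26 to 7.92 in tumors. In all, 4 libraries were the highest of their group in at least 5 of the 6 interferon-linked members and are named beside the results they bear on: KO 14-day lung replicate 2, WT 14-day lung replicate 5, WT control lung replicate 4 and KO tumor replicate 2. The 3 lungs stood far from their groups, and the tumor did so in Parp14.

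The first question was whether the host's genotype set the level of these genes in the tumor. Dtx3l had the smallest p of the 8. Its FPKM in WT tumors had a lowest value of 20.1, a median of 21.9 and a highest value of 25.2, and in KO tumors a lowest value of 22.7, a median of 31.6 and a highest value of 39.2. Of the KO tumors, 5 of 6 lay above every WT tumor, and KO replicate 1 lay among the WT values. The log2 fold change from edgeR's quasi-likelihood test on the counts was 0.52 ± 0.11 (SE, n = 6 and 6), with a Benjamini-Hochberg adjusted p of 0.0172 over the 13830 genes tested.

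Parp9, the partner of Dtx3l, ranged in WT tumors from 24.9 to 40.0 FPKM with a median of 29.0. In KO tumors it ranged from 37.1 to 56.6 FPKM with a median of 45.7. There were 4 KO tumors above every WT tumor, and the overlap came from WT replicate 3 at 40.0 FPKM against KO replicates 1 and 3 at 37.1 and 38.0 FPKM. The log2 fold change of Parp9 was 0.53 ± 0.13 (SE), adjusted p = 0.0376 by edgeR, close to that of its neighbour Dtx3l.

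Parp11, a mono-ADP-ribosyltransferase and the gene whose upstream letters are shown above, was the lowest of the 6 interferon-linked members in tumors. WT tumors held 7.58 to 12.8 FPKM with a median of 9.09, and KO tumors 10.9 to 24.8 FPKM with a median of 15.2. Above every WT tumor lay 3 of 6 KO tumors. Below every KO tumor lay 5 WT tumors, and WT replicate 4 at 12.8 FPKM lay within the KO range. The log2 fold change was 0.86 ± 0.20 (SE) with an adjusted p of 0.0306, from 60 to 97 counts in WT and 85 to 229 counts in KO libraries.

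Parp14, a large transferase with macrodomains, was 23.1 to 31.7 FPKM in WT tumors with a median of 26.3, and 28.4 to 70.7 FPKM in KO tumors with a median of 35.9. KO replicate 2 at 70.7 FPKM stood far above the other KO tumors, of which the highest was 40.8. The log2 fold change of Parp14 was 0.60 ± 0.17 (SE), and the adjusted p of 0.0796 missed the limit. Parp12, a zinc-finger transferase with antiviral activity, had medians of 24.1 FPKM in WT and 32.5 FPKM in KO tumors, a log2 fold change of 0.42 ± 0.12 and an adjusted p of 0.0796. For each of these genes 4 KO tumors were above all WT tumors. Parp10, a transferase that also binds ubiquitin, had medians of 17.5 FPKM in WT and 22.8 FPKM in KO tumors, a log2 fold change of 0.46 ± 0.13 and an adjusted p of 0.0864.

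**Figure D1:**
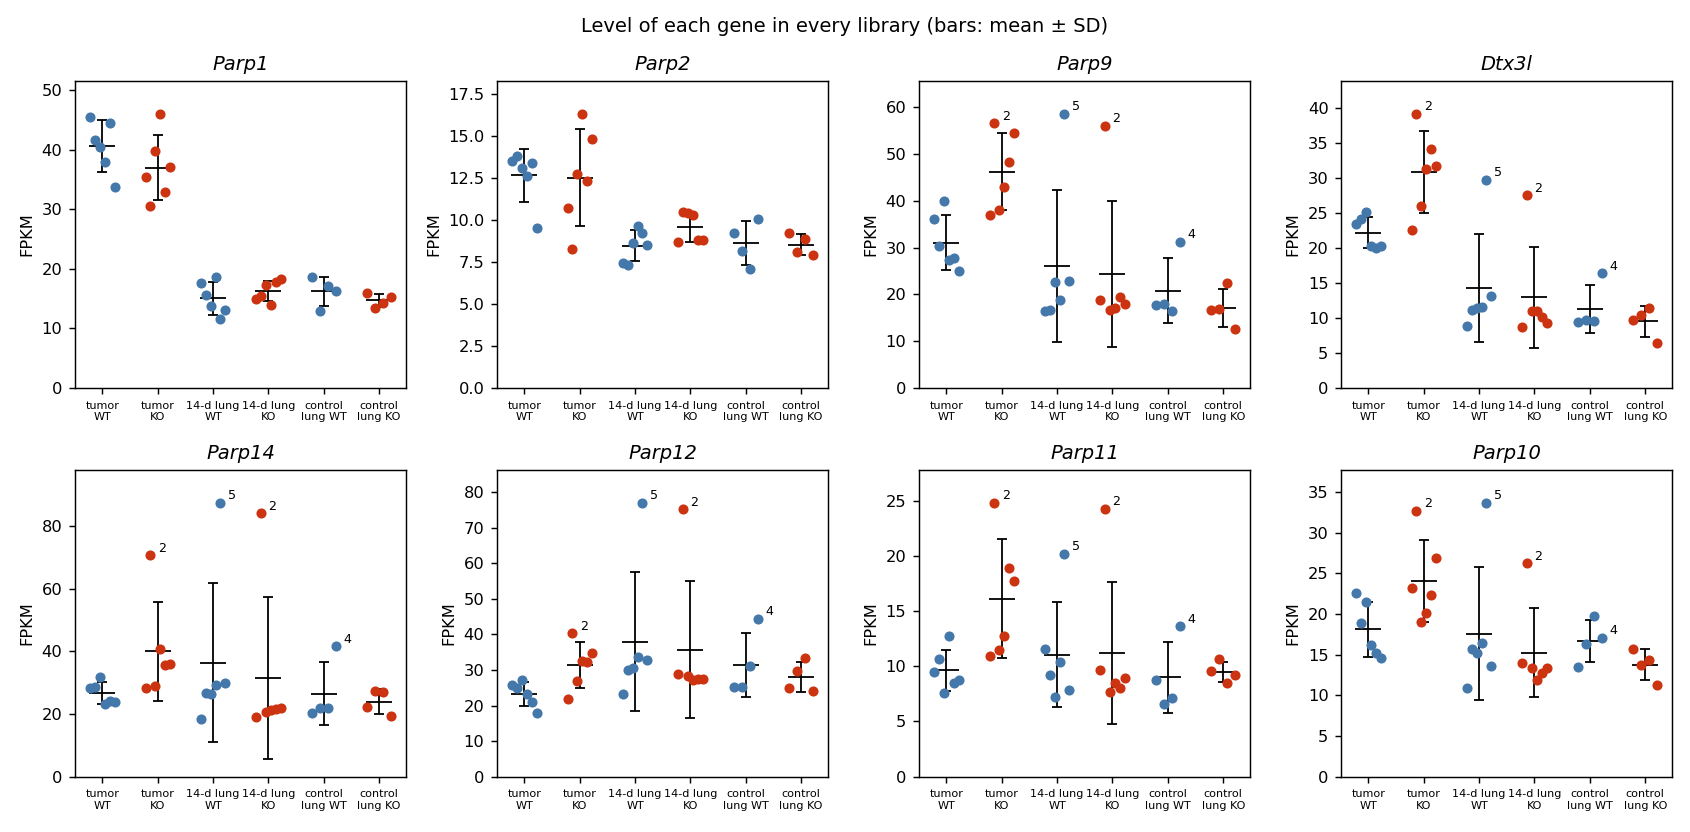
FPKM of each of the 8 genes (y axis, starting at 0) in every library of the 6 groups (x axis); blue points are WT, red points KO, black bars the group mean ± SD, and small numbers give the replicate of those 4 libraries. In Dtx3l 5 of 6 KO tumors exceeded all WT tumors, and KO 14-day lung replicate 2 and WT 14-day lung replicate 5 lay far above the other 14-day lungs in the 6 interferon-linked genes but not in Parp1 or Parp2.

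The repair genes were the contrast within the family. Parp1 was 33.7 to 45.5 FPKM in WT and 30.6 to 46.0 FPKM in KO tumors, with a log2 fold change of -0.12 ± 0.08 (SE), adjusted p = 0.536. Its 95% interval of -0.30 to 0.06 stayed below the lower bound of 0.26 for Parp9 and 0.29 for Dtx3l. Parp2 was 9.51 to 13.8 FPKM in WT and 8.27 to 16.3 FPKM in KO tumors, and its interval of -0.24 to 0.31 reached past both of those bounds.

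In sum over the members, 3 of 8 were called in tumors, all higher in KO hosts, where 2.51% of all genes tested were called and 2.02% were called as higher. All 6 interferon-linked members had an unadjusted p under 0.05, which 15.5% of all genes had, and their median log2 fold change was 0.53 (lowest 0.42, highest 0.86) against a median of -0.01 for all genes. None had every KO tumor above every WT tumor, a pattern found in 1.04% of genes. No member reached a 2-fold change, which with the same adjusted p was reached by 1.06% of genes. The count of members called was 6 with DESeq2 and 0 with limma on log2(FPKM + 1). It was 0 without KO replicate 5 or without WT replicate 5, 1 without KO replicate 6 or without WT replicate 2, and 2 (Dtx3l and Parp11) without KO replicate 2. Over all genes, 347 were called in the test above, 542 with DESeq2 and 182 with limma. With a tumor left out, the calls over all genes were 227 (KO replicate 5), 203 (WT replicate 5), 213 (KO replicate 6), 289 (WT replicate 2) and 300 (KO replicate 2). Dtx3l was called in 10 of the 12 fits that left out 1 tumor, Parp11 in 6 and Parp9 in 5, and the 6 interferon-linked members kept a positive value in all 12.

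**Figure D2:**
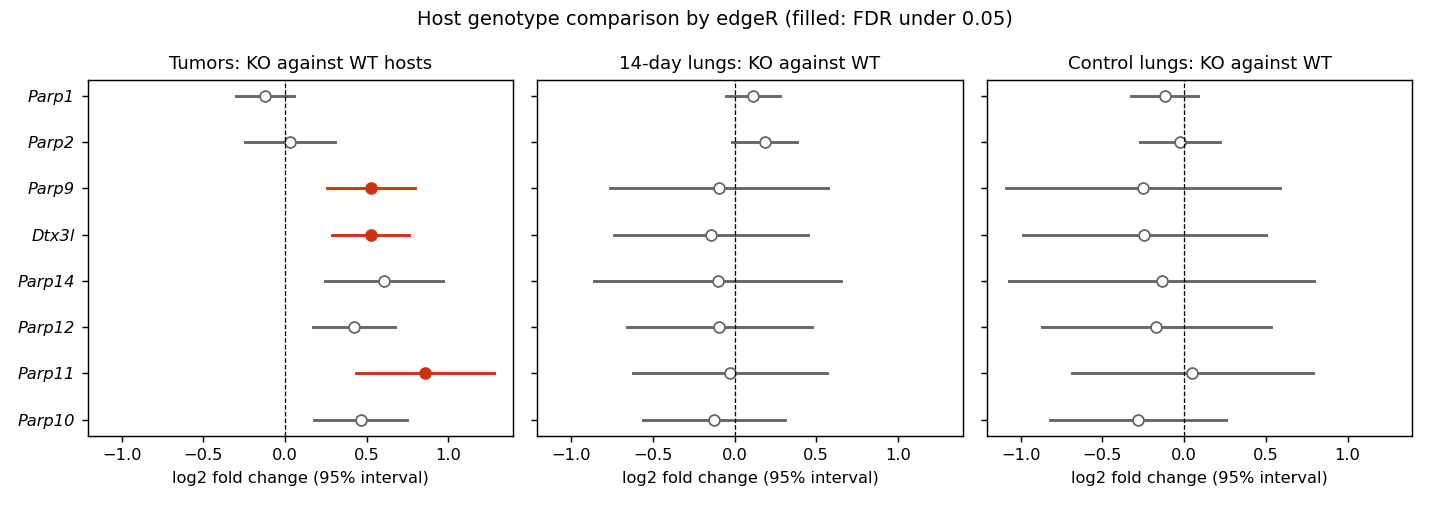
Log2 fold change of KO over WT (x axis) with its 95% interval for each gene (y axis) in tumors, 14-day lungs and control lungs; red filled points have an adjusted p under 0.05. The 6 interferon-linked genes sit between 0.42 and 0.86 in tumors, and in both lung comparisons every interval crosses 0.

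Genes around the members in the same chemistry were counted beside them. None of 9 other PARP-family genes was called in tumors by edgeR, with 2 at an unadjusted p under 0.05, Parp3 at 0.27 and Tnks2 at -0.11 on the log2 scale. None of the 5 tested genes that remove or read ADP-ribose was called (0 at an unadjusted p under 0.05), nor any of 3 tested Deltex genes (1 at an unadjusted p under 0.05, Dtx4 at -0.25). Of 9 partners of Parp1 and Parp2 in the repair of single-strand breaks, none was called and 3 had an unadjusted p under 0.05, all with negative values, Apex1 (-0.28), Aplf (-0.27) and Lig3 (-0.17). These lists were not fitted separately with the other tools.

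The carriers of the interferon signal were the list with calls. Of its 12 tested genes 5 were higher in KO tumors and none lower, with a median log2 fold change of 0.32. They included Irf1, a transcription factor, at 1.16 ± 0.10 (SE), adjusted p = 4.33e-05 by edgeR, the kinase Jak2 at 0.50 ± 0.08, the feedback inhibitor Socs1 at 1.497 ± 0.23 and Stat2 at 0.99 ± 0.20. Irf1 was 32.4 to 40.6 FPKM in WT and 59.8 to 84.6 FPKM in KO tumors, with no overlap. None of the 8 members separated the tumor groups in this way.

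Some markers of T and NK cells and 1 of 5 dendritic cell markers were called between the same tumors. The summed levels of markers, which were not tested, overlapped for T and NK cells, for dendritic cells and for macrophages. The summed level of 9 T and NK cell markers was 31.0 to 52.6 CPM in KO and 12.6 to 45.6 CPM in WT tumors, and 3 of 8 tested genes (Nkg7, Cd3d and Cd3g) were higher in KO. The sum of 5 dendritic cell markers had a median of 64.2 CPM in KO and 41.8 CPM in WT tumors, with Itgax higher at a log2 fold change of 1.00. The 8 macrophage and monocyte markers summed to 682 to 1040 CPM in KO and 519 to 1050 CPM in WT tumors, and none was called. Their median log2 fold change was 0.47, and 5 of the 8 had an unadjusted p under 0.05, all with positive values, from 0.46 for Itgam to 0.89 for Ly6c2. Further, 4 tumor epithelial markers summed to 435 to 513 CPM in KO and 512 to 666 CPM in WT, 5 fibroblast markers to 1760 to 3580 and 1960 to 3620 CPM, and 5 endothelial markers to 96.5 to 165 and 108 to 146 CPM, with none of these genes called. Neutrophil markers summed to 16.2 to 41.6 CPM in KO and 15.5 to 25.7 CPM in WT tumors, with 0 of 4 tested genes called and Ly6g at 0 counts in all 12 tumors. B cell markers reached 4.09 CPM in KO tumors and 38.2 CPM in WT tumors, and none passed the filter. The part of these cells in the members' levels was not tested, and in bulk tissue a different number of cells and a different amount of RNA per cell cannot be told apart.

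In 14-day lungs the same genotype comparison gave no call among the members. Dtx3l was 8.74 to 27.6 FPKM in KO lungs (median 10.6) and 8.81 to 29.8 FPKM in WT lungs (median 11.5), and the groups overlapped. Parp9 had medians of 18.3 FPKM in KO and 20.8 FPKM in WT, and Parp14 medians of 21.4 and 28.0 FPKM. The 6 interferon-linked members had log2 fold changes from -0.14 to -0.03, with 95% intervals reaching from -0.86 to 0.65 across them. Single lungs set the sign of these values: without KO replicate 2 they ran from -0.67 (Parp14) to -0.34 (Parp10), and without WT replicate 5 from 0.15 (Parp10) to 0.37 (Parp14). By edgeR 0 of 8 were called, where 0.0936% of all genes were, and 0 had an unadjusted p under 0.05, which 8.34% of genes had; DESeq2 and limma also called 0.

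Control lungs, the background level without a tumor, gave the same count. In WT control lungs Parp9 was 17.7, 17.8, 16.5 and 31.2 FPKM and in KO control lungs 16.6, 17.0, 22.4 and 12.5 FPKM. Dtx3l was 9.39, 9.79, 9.56 and 16.4 FPKM in WT and 9.72, 10.4, 11.5 and 6.42 FPKM in KO. WT replicate 4 was the highest of its group in both genes, and KO replicate 4 the lowest of its group. Parp11 was 8.79, 6.55, 7.11 and 13.6 FPKM in WT and 9.55, 10.7, 8.46 and 9.23 FPKM in KO control lungs. Log2 fold changes of the 6 ran from -0.28 to 0.05 and 0 of 8 members were called by edgeR (background 0.0187%), 0 at an unadjusted p under 0.05 (background 11.6%), 0 by DESeq2 and 0 by limma.

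Presence of a tumor was compared with its absence within each genotype. In KO lungs the interferon-linked members had log2 fold changes of 0.15 to 0.49 at 14 days against controls, and in WT lungs 0.13 to 0.42. None was called in either genotype by edgeR, against a background of 0.0374% in KO lungs and 0% in WT lungs. None had an unadjusted p under 0.05, against 8.64% and 11.8% of genes, and DESeq2 and limma called 0 in both. The interaction of genotype with tumor burden lay between -0.08 and 0.16 for these genes, with 0 of 8 members called (background 0.00624%) and 0 at an unadjusted p under 0.05 (background 8.53%). Parp1 and Parp2 had interaction values of 0.23 ± 0.13 and 0.21 ± 0.15 (SE), with adjusted p-values of 0.642 and 0.732. At an adjusted p of 0.25 with a 1.5-fold change, the wider limit the study used in lungs, 0 members passed in all 5 lung comparisons, where 0.212% (14-day KO against WT), 0.231% (control KO against WT), 0.262% (KO 14-day against control), 0.574% (WT 14-day against control) and 0.0312% (interaction) of genes passed. At an adjusted p of 0.05 the 5 companion lists also had 0 calls in each of these lung comparisons, and at the wider limit 1 gene passed, Dtx1 of the Deltex family, at -0.98 on the log2 scale between WT 14-day and control lungs (adjusted p = 0.229 by edgeR).

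Those intervals were widened by 3 lungs. KO 14-day lung replicate 2 held 84.2 FPKM of Parp14 where the other 5 held 19.1 to 22.03, a ratio of 4.03 to their mean. The same lung held 75.2 FPKM of Parp12 (others 27.1 to 28.9), 56.1 of Parp9 (others 16.6 to 19.4), 27.6 of Dtx3l (others 8.74 to 11.1), 26.2 of Parp10 (others 11.9 to 14.0) and 24.3 of Parp11 (others 7.64 to 9.70). All 6 interferon-linked members were thus highest in this lung, and Parp1 at 15.4 FPKM lay inside the others' range of 14.0 to 18.3. Parp2 was also highest here, but by little, at 10.46 FPKM against 8.71 to 10.43 in the others.

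WT 14-day lung replicate 5 was alike. It held 87.6 FPKM of Parp14 (others at most 30.0), 77.1 of Parp12 (others 23.3 to 33.5) and 58.6 of Parp9 (others 16.3 to 23.0), and it was the highest of its group in all 6 members. Its Parp1, 11.6 FPKM, was the lowest of the group. WT control lung replicate 4, from a mouse without a tumor, was the highest of its group in 5 of the 6. It held 41.7 FPKM of Parp14 (others 20.4 to 22.1) and 44.4 of Parp12 (others 25.2 to 31.1). Its Parp10 at 17.0 FPKM lay inside the others' range of 13.5 to 19.8, and its Parp2 at 10.1 FPKM was above the others (7.06 to 9.22). The 3 lungs thus belong to 3 different groups, both genotypes and mice with and without a tumor.

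**Figure D3:**
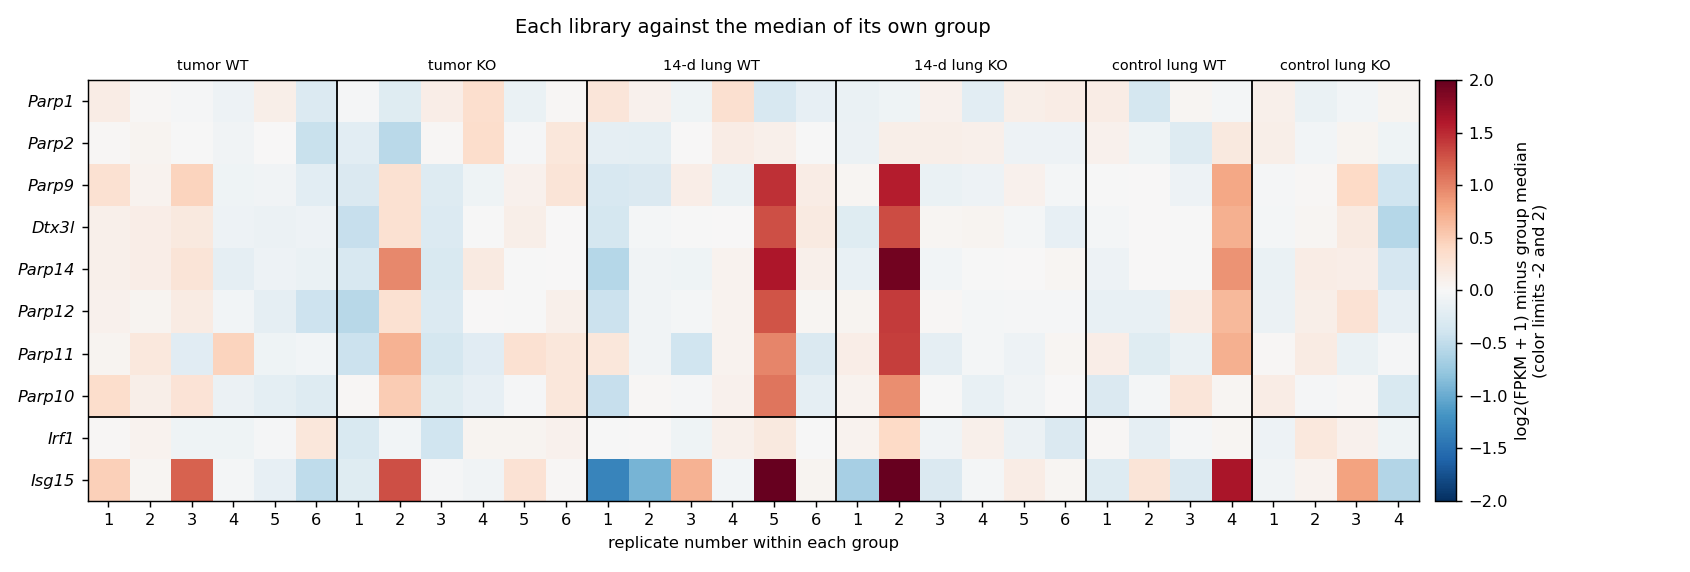
Log2(FPKM + 1) of each gene (rows) in each library (columns, replicate numbers within the 6 groups) minus the median of its own group, in red above and blue below, with colors capped at -2 and 2. Replicate 2 of the KO 14-day lungs, replicate 5 of the WT 14-day lungs and replicate 4 of the WT control lungs are red in the interferon-linked rows (except Parp10 in the control lung) and in Isg15, and Parp1, Parp2 and Irf1 differ far less from their group medians there.

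In KO tumors, replicate 2 was the highest in all 6 interferon-linked members and replicate 1 the lowest in 5 of them. Parp14 was raised most in replicate 2, at 2.08 times the mean of the other 5 KO tumors, and Parp9 least, at 1.28 times. Its Parp2 of 8.27 FPKM was the lowest of all 12 tumors.

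Isg15, a ubiquitin-like protein strongly induced by interferon that was chosen after its values were seen, was 105.9, 83.1 and 26.6 FPKM in the 3 lungs, where the highest of the other libraries in each group were 8.44, 17.5 and 9.62. In KO tumor replicate 2 Isg15 was 63.0 FPKM against at most 30.8 in the other KO tumors. By host it overlapped widely, at 21.05 to 63.0 FPKM in KO tumors (median 25.1) and 14.5 to 49.2 FPKM in WT tumors (median 21.2).

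Cell type markers in these libraries were compared with the rest of their groups. In KO 14-day lung replicate 2 the macrophage and monocyte sum was 371 CPM (others 337 to 409) and the T and NK cell sum 38.3 CPM (others 37.0 to 78.7), and neutrophil markers were low at 34.3 CPM (others 109 to 349), as were B cell markers at 24.9 CPM (others 26.2 to 90.8). Its fibroblast and tumor epithelial sums lay just above the others, at 1310 CPM (others at most 1300) and 406 CPM (others at most 402). WT 14-day lung replicate 5 lay inside the others' ranges in 8 of the 9 sums, and its dendritic cell sum was low at 170 CPM (others 186 to 254). In WT control lung replicate 4 the macrophage and monocyte sum was 415 CPM (others 318 to 385), the T and NK cell sum 87.3 CPM (others 60.8 to 69.5) and the neutrophil sum 83.2 CPM (others 42.0 to 65.9), with a fibroblast sum of 1240 CPM just below the others (1250 to 1360). KO tumor replicate 2 had the lowest macrophage and monocyte sum of its group, 682 CPM (others 828 to 1040), and its dendritic cell sum lay below the 59.2 to 73.6 CPM of the others. Its endothelial sum was the highest, 165 CPM (others 96.5 to 153), as was its B cell sum, 4.09 CPM (others 1.29 to 3.53). Their part in the members' levels was not tested.

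Without the 3 lungs, an alternative chosen after seeing the data, 0 members were still called in each of the 5 lung comparisons by edgeR. The standard error of Parp9 between KO and WT 14-day lungs was then 0.12 in place of 0.32 and that of Parp14 0.11 in place of 0.36. The values were -0.14 for Parp9 and -0.20 for Parp14 on the log2 scale, with adjusted p-values of 0.791 and 0.664. In the KO lungs, the 14-day values against controls became 0.04 for Parp9, 0.08 for Dtx3l and -0.11 for Parp14, so the positive values of 0.49, 0.45 and 0.46 rested on replicate 2. In the WT lungs they became 0.16 for Parp9 in place of 0.33, 0.25 for Parp14 in place of 0.42 and -0.10 for Parp10 in place of 0.13. Here the high lungs sat on opposite sides of the comparison. Without WT 14-day replicate 5 alone all 6 values were negative, from -0.15 (Parp10) to -0.002 (Dtx3l), and without WT control replicate 4 alone they ran from 0.16 (Parp10) to 0.71 (Parp14). The interaction of genotype with tumor burden turned likewise, to values of -0.54 to -0.07 without KO 14-day replicate 2 and of 0.23 to 0.56 without WT 14-day replicate 5. Between control lungs, Parp14 went from -0.14 to 0.15 and Parp12 from -0.17 to 0.04 without WT replicate 4.

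Across the 32 libraries, deviations from the group means moved together within the interferon-linked set. The 15 pairs of these 6 genes had Pearson r from 0.83 to 0.96 on log2(CPM + 1), and from 0.25 to 0.77 without the 4 libraries named above. Parp1 or Parp2 against the 6 had r from -0.50 to 0.29, and from -0.36 to 0.53 without the 4 libraries, so that the ranges of the sets then overlapped. These are descriptions over libraries that share a normalization, and the 4 libraries set much of their size.

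The genes whose pattern was most like each member's were found in the same way among 16825 genes. For Parp9 they were Oasl2 (r = 0.97), Xaf1 (0.97) and Rnf213 (0.97), and for Dtx3l Eif2ak2 (0.97), Ifi44 (0.97) and Rnf213 (0.96). Parp12 had Rnf213 (0.98), Ifih1 (0.97) and Adar (0.97), Parp14 had Cmpk2 (0.96), Adar (0.96) and Rnf213 (0.96), and Parp10 had Rnf213 (0.94), Oasl2 (0.94) and Ifit2 (0.94). Eif2ak2 is the RNA-sensing kinase PKR and Ifih1 the RNA sensor MDA5. For Parp11 the likest were 2 fellow members, Dtx3l (0.89) and Parp12 (0.88), and Herc6 (0.88), and these fell to between 0.45 and 0.50 without the 4 libraries. Parp1 had lower values, with Snrpd1 (0.67), Trp53 (0.67) and Nnt (0.66), and so did Parp2, with Dpep2 (0.78), Fkbp11 (0.74) and Pitrm1 (0.74). Without the 4 libraries these were 0.64 to 0.71 for Parp1 and 0.66 to 0.72 for Parp2, above those of Parp11. For the same genes Parp14 then had 0.71 to 0.78, and Parp9, Parp10, Parp12 and Dtx3l had 0.78 to 0.91. The contrast with Parp11 and Parp14 thus rested on the 4 libraries.

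Tumor and lung were compared at 14 days within each genotype. The labels do not say whether a tumor and a lung with the same number came from 1 mouse, and the test took them as separate; KO tumor replicate 2 and KO 14-day lung replicate 2 share a number. Parp1 was 33.7 to 45.5 FPKM in WT tumors and 11.6 to 18.6 FPKM in WT lungs, with no overlap. Its log2 fold change was 1.57 ± 0.09 (SE), adjusted p = 7.65e-17 by edgeR, in WT hosts and 1.32 ± 0.09, adjusted p = 6.51e-15, in KO hosts. Parp2 was higher in tumors by 0.64 and 0.47 on the log2 scale. Dtx3l was the interferon-linked member with a call in both hosts, 0.69 ± 0.24 (adjusted p = 0.0117) in WT and 1.34 ± 0.25 (adjusted p = 1.23e-05) in KO.

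Altogether 3 of 8 members were called between WT tumor and WT lung, all higher in the tumor, where 75.9% of all genes were called and 37.5% were called as higher. Between KO tumor and KO lung 6 of 8 were called, all higher in the tumor, with a background of 74.4% and 37.2%. Parp9 (0.93), Parp10 (0.71) and Parp11 (0.71) were called in KO hosts, while Parp12 (0.04) and Parp14 (0.36) were not. Parp12 in WT hosts was 17.8 to 27.1 FPKM in tumors and 23.3 to 77.1 FPKM in lungs, a log2 value of -0.46 ± 0.24 with an adjusted p of 0.0831. It was called as lower in the tumor with limma on log2(FPKM + 1) (-0.58, adjusted p = 0.0268) and without WT lung replicate 1 (-0.56, adjusted p = 0.0405 by edgeR), and was -0.13 without WT lung replicate 5. Parp11 in KO hosts lost its call without KO tumor replicate 2 (0.54, adjusted p = 0.0679 by edgeR). Without WT lung replicate 5 the WT count was 5, with Parp9 (0.72) and Parp10 (0.41) added, without KO lung replicate 2 the KO count was 7, with Parp14 (0.93) added, and without all 4 libraries it was 5 in WT and 8 in KO hosts.

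**Figure D4:**
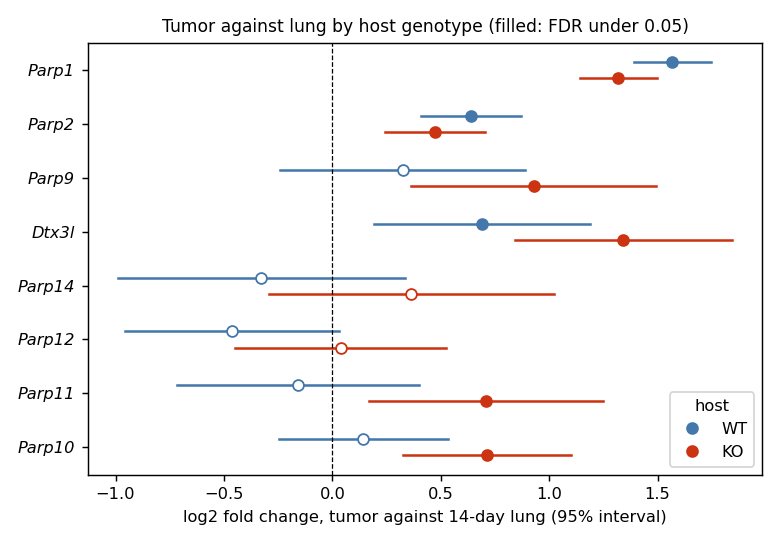
Log2 fold change of tumor over 14-day lung (x axis) with its 95% interval for each gene (y axis), in WT hosts (blue) and KO hosts (red); filled points have an adjusted p under 0.05. Parp1 lies at 1.57 and 1.32, Dtx3l at 0.69 and 1.34, and the intervals of the 6 interferon-linked genes are wider than those of Parp1 and Parp2.

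The difference between these tissue contrasts, which is also the difference between the genotype contrasts in tumor and lung, was tested as an interaction. It was 0.50 to 0.87 on the log2 scale for the 6 interferon-linked members and -0.25 and -0.17 for Parp1 and Parp2. None of the 8 was called by edgeR, by DESeq2 or by limma, with 2 (Parp10 and Parp11) at an unadjusted p under 0.05. The background was 1.06% by adjusted p, and 2018 of 16825 genes had an unadjusted p under 0.05. Parp11 had the smallest adjusted p, 0.331, and was called without KO 14-day lung replicate 2 (1.26, adjusted p = 0.0424), the 1 change of this count when libraries were left out in turn. Without that lung the 6 values rose to between 0.79 (Parp10) and 1.26, and without WT 14-day lung replicate 5 they fell to 0.17 (Parp12), 0.21 (Parp9), 0.23 (Parp14), 0.30 (Dtx3l), 0.30 (Parp10) and 0.56 (Parp11). Of the 12 tested interferon signal carriers 2 were called in this interaction, Irf1 at 1.13 ± 0.14 (SE) and Jak2 at 0.41 ± 0.09.

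The companion lists were counted against the same backgrounds of 75.9% called in WT and 74.4% in KO hosts, and apart from the Deltex genes their shares were near or below these. Of the 9 break repair partners 5 were higher in tumor in each genotype and none lower, led by Apex1, the abasic site endonuclease, at 3.07 in WT and 2.49 in KO hosts, and Lig3, a DNA ligase, at 1.103 and 0.93. Among the 9 other PARP genes 5 were higher and 1 lower in tumor in each genotype, with Parp8 at 1.15 and 1.19 and Parp6 at -0.46 and -0.39. Of 4 Deltex genes 3 were higher and 1, Dtx1, lower in tumor in both genotypes. Of 7 ADP-ribose erasers and readers 2 were higher and 3 lower in WT hosts, and 3 were higher and 2 lower in KO hosts. Interferon signal carriers split as 2 higher and 5 lower of 12 in WT hosts and 7 higher and 2 lower in KO hosts.

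Levels per length set the members in order. By mean FPKM, the highest group was the WT tumors for Parp1 (40.6 ± 4.35, SD, n = 6) and Parp2 (12.7 ± 1.59), and the KO tumors for Parp9 (46.2 ± 8.27), Dtx3l (30.9 ± 5.87), Parp14 (40.1 ± 15.7), Parp10 (24.03 ± 5.03) and Parp11 (16.1 ± 5.39). For Parp12 it was the WT 14-day lungs (37.9 ± 19.5), and by the median, which the high lung does not carry, the KO tumors (32.5). The one step in these orders without overlap between neighbouring groups was Parp1 between tumors and lungs; all other neighbours overlapped.

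The balance of Dtx3l to its partner Parp9 had a higher median in tumors than in lungs, with overlap, and was not tested. The ratio of their FPKM was 0.58 to 0.81 in the 12 tumors with a median of 0.70, and 0.47 to 0.67 in the 20 lungs with a median of 0.54. Of the lungs 14 lay below every tumor, and 6 lay above the lowest tumor. By host, tumors had medians of 0.69 in KO and 0.74 in WT. In the 4 high libraries the ratio was 0.49, 0.51, 0.53 and 0.69 in the order given above, inside the range of the same tissue. These ratios are a description, and they rest on the assignment of reads in the 682 bases that the genes share.

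**Figure D5:**
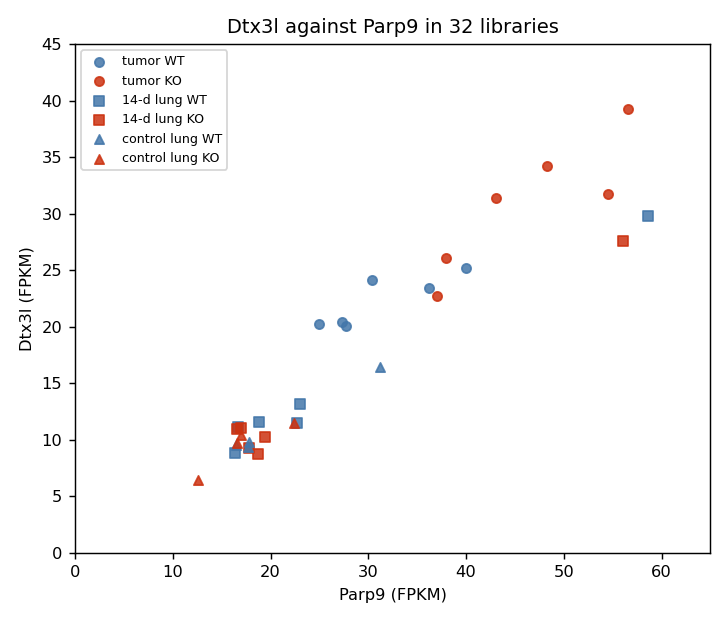
Dtx3l FPKM (y axis) against Parp9 FPKM (x axis) in all 32 libraries; circles are tumors, squares 14-day lungs, triangles control lungs, blue WT and red KO. Of the 20 lungs, 14 have a lower Dtx3l to Parp9 ratio than every tumor, the 2 squares near 56.1 and 58.6 FPKM of Parp9 among them, and the others overlap the tumors.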

How the data were processed

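Tumors and lungs of Clic4 KO and WT mice were profiled by paired-end mRNA sequencing (TruSeq stranded), with independent animals within a group. Reads were aligned by the authors with STAR to mm10 and quantified with RSEM, per the labels; the authors deposited a table of estimated counts per gene, given as whole numbers, and a table of FPKM values. Annotation and strand setting of the counting were not given in the sources used here. Deposited estimated counts served all tests, and deposited FPKM the levels compared between genes. Rn7s1, Rn7s2 and Rn7sk take a large and varying share of FPKM, so FPKM can shift between libraries.

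Counts were filtered with filterByExpr, scaled by TMM and tested with edgeR 4.0.16 (quasi-likelihood, R 4.3.3) in 3 fits: 12 tumors, 20 lungs, and all 32 libraries for comparisons of tumor with lung and the genotype by tissue interaction. A gene was called at a Benjamini-Hochberg adjusted p below 0.05 over all genes tested, with no fold limit. Alternatives used DESeq2 1.42.0, limma 3.58.1 on log2(FPKM + 1) or log2(FPKM + 0.1), other filters and scalings, a replicate block and libraries left out in turn. Code was tested on simulated counts. Motifs were searched in RefSeq promoter windows.

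Members and lists (other PARP genes, ADP-ribose removal and readers, Deltex, break repair partners, interferon signal carriers and markers of 9 cell types) were chosen with earlier results of these data known. Every member is named; list genes are named where called, at most 5 per list by smallest p, or by what a sentence needs, and for each member the 3 genes with the highest r. The listed genes named below the limit, and those named in comparisons of tissues, were picked after their values were seen. Same-numbered tumors of KO and WT hosts had deviations correlated at -0.35 to 0.14, those of KO tumors and KO 14-day lungs at 0.05 to 0.18, and no label ties the numbers, so samples were not paired. Precision is limited by 4446323 to 8318711 counts per library. Within tumors or within lungs, p-values measure the spread between animals. Those of tumor against lung and of the genotype by tissue interaction took each tumor and lung as separate animals, which the labels do not settle. Values of some listed genes are not reported here.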

Additional observations from a re-analysis of the deposited data

Results flagged for a closer look

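Among 48 sets of 4 or 6 libraries (8 genes in 6 groups), 15 had a lowest or highest value set off from its neighbour by more than Dixon's 95% limit on log2(FPKM + 1). Chance gives about 1 in 20 for independent sets. These sets share libraries and their genes move together, so the 15 cannot be read against that rate. On FPKM itself 17 sets passed, with Parp11 in WT 14-day lung replicate 5 and Parp14 in KO tumor replicate 2 added. KO 14-day lung replicate 2 was the highest library in 6 of the 15, with Parp9 at 56.1, Parp10 at 26.2, Parp11 at 24.3, Parp12 at 75.2, Parp14 at 84.2 and Dtx3l at 27.6 FPKM. WT 14-day lung replicate 5 was the highest in 5, with Parp9 at 58.6, Parp10 at 33.7, Parp12 at 77.1, Parp14 at 87.6 and Dtx3l at 29.8 FPKM. WT control lung replicate 4 was the highest in 3, with Parp9 at 31.2, Parp14 at 41.7 and Dtx3l at 16.4 FPKM. WT tumor replicate 6 had the lowest Parp2 of its group, at 9.51 FPKM. The library totals of the first 3 were within the range of the others of the series, and the source of their high levels was not tested.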

How the results depend on the processing

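Of 1800 refitted log2 fold changes of the 8 members in 9 comparisons, 1709 were counted as the same. These were called in both fits, whatever their shift, or uncalled in both and within 1 SE. Of the rest, 30 lost the call, 18 gained it and 43 uncalled values moved by more than 1 SE. No called value changed sign, and 96 uncalled values did. Among called values counted as the same, Dtx3l in KO tumor against KO lung went from 1.34 to 1.71 (SE 0.25) without KO lung replicate 2. In tumors, the count of members called for KO against WT hosts was 3 and became 6 with DESeq2 and 0 with a 2-fold limit, with limma on log2(FPKM + 1), on log2(FPKM + 0.1) or on log2(FPKM + 1) without a filter, and it ran from 0 to 4 with 1 tumor left out. With the replicate number as a replicate block it was 0, with adjusted p-values of 0.0508 for Dtx3l, 0.0564 for Parp11 and 0.125 for Parp9; the numbers do not pair these tumors, and the block changed no other count of members called. It moved the count over all genes from 347 to 257 in tumors. That count was 542 with DESeq2, 146 with the 2-fold limit, 126 to 182 with the limma fits and 203 to 488 with 1 tumor left out. Same-numbered KO tumors and KO 14-day lungs had each their highest correlation with their own number in 6 of 6 cases (r of 0.05 to 0.18, highest for number 2), a hint from the data only. Other scalings, count filters and robust fitting left the tumor count at 3. For WT tumor against WT lung, called members numbered 1 with a 2-fold limit, 3 to 5 with 1 library left out and 5 without the 4 high libraries, and Parp12 was called as lower in the tumor under 4 of 12 other settings (adjusted p of 0.0266 to 0.238 over them); for KO tumor against KO lung, 2 with a 2-fold limit and 5 to 7 with 1 library left out, and Parp11 lost its call under 2 of 12 other settings (adjusted p up to 0.0632). The interaction of genotype with tissue had 0 to 1. In the 5 lung comparisons the count was 0 throughout, also with an adjusted p of 0.25 and a 1.5-fold limit. The cause of these changes was not tested. The 95% intervals of Parp9 and Parp14 between control lungs reach from -1.09 to 0.58 and from -1.07 to 0.80 on the log2 scale, so differences within them were not detectable with these lungs; without the 3 high lungs the SEs were 0.15 and 0.14 in place of 0.40 and 0.45.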
